A study of Mus musculus with 4 samples.

Results

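Hox genes encode homeodomain transcription factors that lie in 4 chromosomal clusters, HoxA to HoxD, and that give cells an address along the body axis and along the limb. All genes whose symbol was Hox followed by the cluster letter a to d and a paralog number were taken, which gave 39 of the 33696 genes listed: 11 in HoxA, 10 in HoxB, 9 in HoxC and 9 in HoxD. Their transcripts were followed in stromal, mural, glial, muscle, endothelial and immune cells of the mouse Achilles tendon, the tendon that joins the calf muscles to the heel. The cells were barcoded in droplets and their RNA sequenced in 4 libraries. Each group had 1 library, which leaves no replicates to test with, and intervals cover counting error only. The groups, for which the labels name no strain, allele or transgene, were uninjured and injured tendon of neonates at postnatal day 3, and uninjured and injured tendon of adults aged 6 to 8 weeks. The labels do not give the kind of injury, the time from injury to harvest, or the number and sex of the mice in a library. Unless another order is named, 4 values in a row are those of the uninjured neonate (neonate control), the injured neonate (neonate injury), the uninjured adult (adult control) and the injured adult (adult injury).

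Within a cluster, genes of low paralog number are known to be active nearer the head and trunk and genes of high number nearer the tail. In the developing limb, Hox10 genes are known to act in the upper segment, Hox11 genes in the middle segment and Hox13 genes in the hand and foot. HoxC genes of paralogs 9 to 11 are known from the hindlimb bud rather than the forelimb bud, while most HoxB genes are known from the trunk and from blood vessels. Adult fibroblasts are known to keep part of the Hox pattern of their place of origin.

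The promoter sequences of 4 members with contrasting patterns show regions before start sites listed for these genes. Hoxa11 and Hoxd11, the Hox11 genes of the middle limb segment, were higher in stromal than in endothelial cells, whereas Hoxa7 and Hoxb8 of the trunk paralogs were higher in endothelial cells. Each line gives the 250 bases before the start, 5′ to 3′, from RefSeq on GRCm38.p6, at chr6:52245811-52246060 (minus strand), chr2:74682073-74682322 (plus strand, the second of the 2 starts listed for Hoxd11), chr6:52218574-52218823 (minus strand) and chr11:96281655-96281904 (plus strand). Capitals mark matches, on either strand, to TGATNNAT, the core letters of a joint Hox and Pbx site, or to TTTATG, letters found in sites of posterior Hox and Cdx proteins.
Hoxa11: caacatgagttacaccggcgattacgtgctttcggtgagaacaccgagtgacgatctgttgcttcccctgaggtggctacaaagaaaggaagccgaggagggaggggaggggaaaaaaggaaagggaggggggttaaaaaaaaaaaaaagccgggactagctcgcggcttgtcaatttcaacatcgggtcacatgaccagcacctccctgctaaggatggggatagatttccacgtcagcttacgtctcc
Hoxd11: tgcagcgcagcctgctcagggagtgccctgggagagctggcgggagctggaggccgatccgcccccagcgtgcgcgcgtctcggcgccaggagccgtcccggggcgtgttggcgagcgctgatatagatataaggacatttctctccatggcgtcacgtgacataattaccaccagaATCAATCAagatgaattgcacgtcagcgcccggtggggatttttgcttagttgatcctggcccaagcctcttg
Hoxa7: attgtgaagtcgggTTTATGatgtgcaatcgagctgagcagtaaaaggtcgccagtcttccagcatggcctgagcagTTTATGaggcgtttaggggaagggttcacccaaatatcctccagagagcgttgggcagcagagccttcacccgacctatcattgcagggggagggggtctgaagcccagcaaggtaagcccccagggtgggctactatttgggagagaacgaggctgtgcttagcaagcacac
Hoxb8: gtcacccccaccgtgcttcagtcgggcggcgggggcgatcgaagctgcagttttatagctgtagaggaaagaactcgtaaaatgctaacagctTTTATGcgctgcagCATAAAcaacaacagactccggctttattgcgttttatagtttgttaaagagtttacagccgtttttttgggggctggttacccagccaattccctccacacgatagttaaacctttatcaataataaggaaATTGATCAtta
The Hoxa11 window held neither motif, the Hoxd11 window held TGATNNAT once, the Hoxa7 window held TTTATG 2 times, and the Hoxb8 window held TGATNNAT once and TTTATG 2 times, with no matches overlapping. Among the 24 Hox promoters found for 22 members, 4 (16.7%) held TGATNNAT, against 7.68% of all 32851 promoters of that length, and 5 (20.8%) held TTTATG, against 10.8%. CG dinucleotides had a median of 12.5 in the Hox windows, with a range of 2 to 35, and of 6 in all windows. For 20 of the 24 Hox promoters, bases after the start were found in an annotated transcript of the gene. The Hoxa7 promoter was not among these 20, so its window may not lie before the start of the transcripts counted. A match describes these letters only. The deposited counts were made on another build, so these coordinates were not joined to them.

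Cells were assigned to classes by markers that include no Hox gene. The gate left 5451, 8028, 3651 and 2023 stromal cells, 477, 266, 319 and 95 mural cells, 469, 1045, 72 and 14 glial cells, 311, 135, 55 and 18 muscle cells, 364, 996, 923 and 370 endothelial cells and 579, 1520, 283 and 1546 immune cells. Classes with under 100 cells in a library are given as levels and enter no count of genes past 2-fold. Every stromal, mural, glial, endothelial and immune marker had UMIs in its own class in each library, and 1 muscle marker was at 0 in muscle cells of both adult libraries. The matrices held 10887, 16327, 6563 and 5003 barcodes with 68644322 to 128626912 UMIs, median depths of the cells kept ran from 5536 to 10338 UMIs, and pairs of libraries shared 3 to 49 barcodes. Stromal cells had median depths of 10981, 6237.5, 11643 and 19250 UMIs, and 16 stromal markers, collagens among them, summed to 47752, 91377, 54664 and 77197 CPM there. Levels are UMIs of a gene summed over the cells of a class, per 1000000 UMIs of that class (CPM); they are not scaled by length, so they are compared within a gene and not ranked between genes.

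Of the 39 members, 27 reached 10 CPM with at least 20 UMIs in a class of at least 100 cells and are described with their values. The other 12 stayed at or below 6.53 CPM in such classes. Of these, Hoxb13 had no UMI in any class. Hoxa13, Hoxc13 and Hoxd13 are named below because they mark the distal limb, and Hoxa2 because it was the only one counted in its comparison; these were chosen after their values were seen. Models of 11 members overlap another member on the same strand in an annotation of GRCm38, 4 of them by exons: Hoxc5 with Hoxc10 and Hoxd3 with Hoxd4. Introns of the long Hoxa3 and Hoxc5 models hold other members, and Hoxa11, Hoxb2, Hoxb3, Hoxd3 and Hoxd4 have antisense partners. Whether the counting used introns or strand is not given in the sources used here, so how reads were split between such genes is uncertain.

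Each class had its own mixture of the 4 clusters. Summed over all members, stromal cells held 179, 273, 331 and 239 CPM, endothelial cells 298, 513, 481 and 401 CPM, and immune cells 10.2, 14.4, 13.1 and 19.2 CPM. Mural cells held 262, 344, 310 and 308 CPM, muscle cells 155, 223, 232 and 200 CPM, and glial cells 109, 102, 78.9 and 68.7 CPM. The immune sum was thus the lowest of the 6 in all 4 libraries and the endothelial sum the highest.

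**Figure D1:**
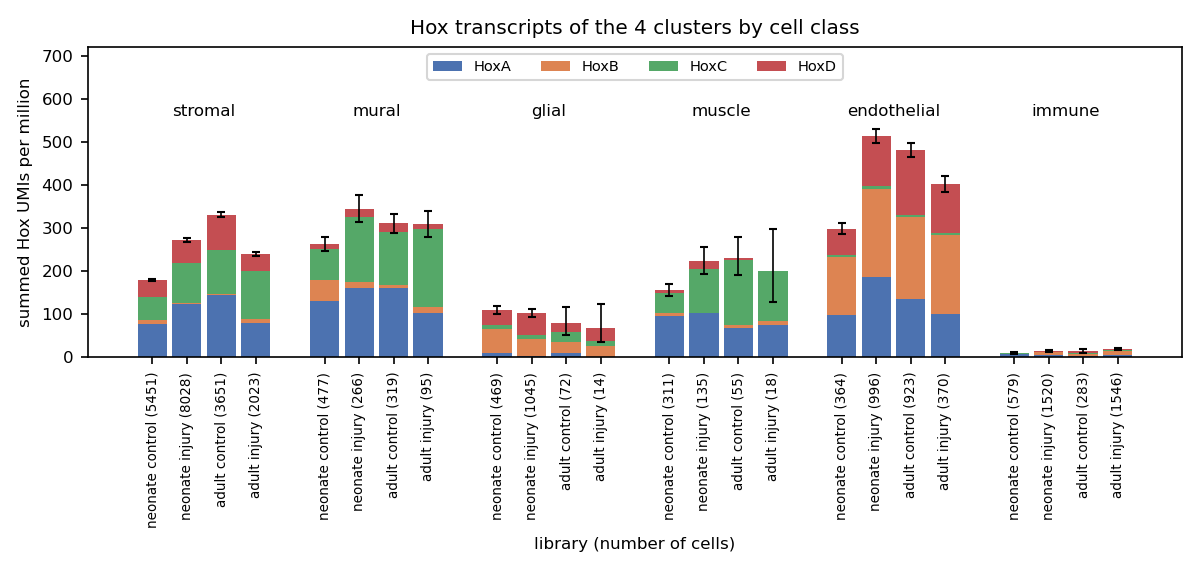
Stacked bars give the summed CPM of HoxA, HoxB, HoxC and HoxD members (y axis) in each class and library (x axis, with the number of cells), and error bars give the exact 95% Poisson interval of the whole sum. HoxB is the thickest part in endothelial cells of all 4 libraries and a thin strip in stromal cells, and immune cells stay at or below 19.2 CPM.

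In stromal cells, HoxA made up 43.6%, 45.1%, 43.8% and 32.9% of the Hox UMIs and HoxC 29.2%, 33.6%, 31.1% and 46.6%. HoxB made up 4.84%, 1.34%, 0.337% and 4.31% there, but 45.3%, 39.9%, 39.6% and 45.3% in endothelial cells. HoxC, in turn, made up 1.58%, 1.34%, 1.12% and 1.23% of endothelial Hox UMIs. Paralogs 9 to 13 held 70.7%, 74.1%, 76.8% and 62.3% of the stromal Hox UMIs and 19.4%, 16.8%, 23.1% and 15.6% of the endothelial ones. Mural cells resembled stromal cells in HoxA and HoxC but held 4.26%, 5.56%, 6.51% and 3.15% of their Hox UMIs in HoxD, where stromal cells held 22.3%, 20%, 24.7% and 16.2%.

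**Figure D2:**
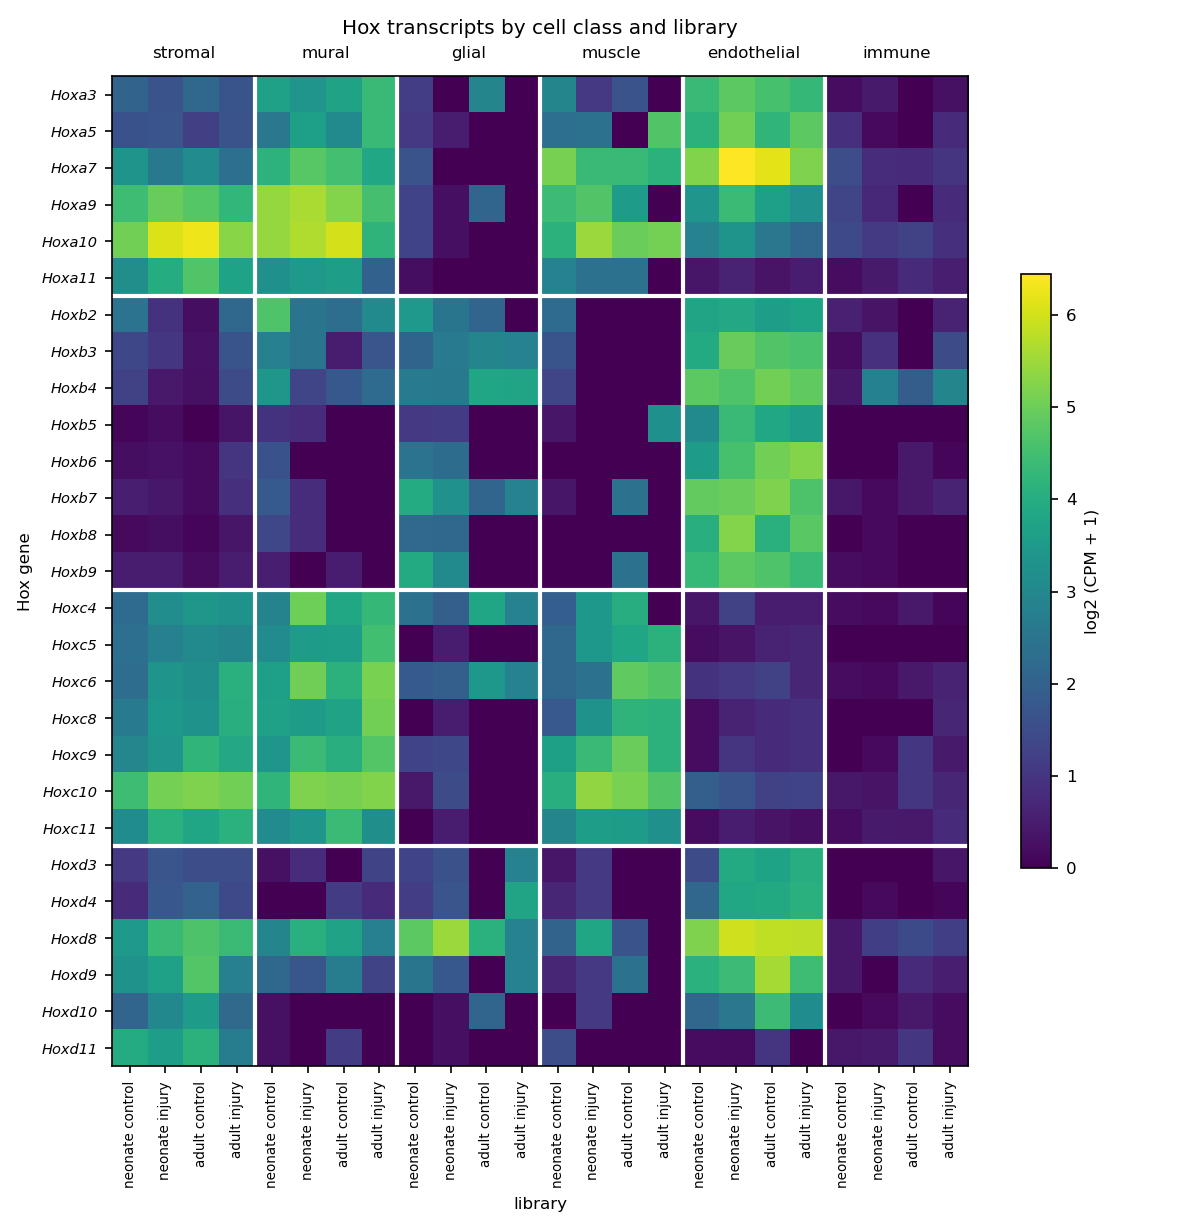
The heat map gives log2(CPM + 1), by colour, of the 27 members that reached 10 CPM (rows, in cluster order) in 6 classes and 4 libraries (columns). Hoxa9 to Hoxa11, Hoxc4 to Hoxc11 and Hoxd8 to Hoxd11 are lit in stromal cells, Hoxb2 to Hoxb9 with Hoxa3 to Hoxa7 in endothelial cells, and nearly all rows are dark in immune cells.

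Markers of limb type were read first, because Hox expression depends on which limb a cell comes from. Pitx1, the hindlimb identity factor, stood at 36.4, 42.9, 47.8 and 26.5 CPM in stromal cells, and Tbx4, the hindlimb T-box factor, at 11.3, 13.9, 15.2 and 5.69 CPM. Tbx5, known as the forelimb counterpart of Tbx4, stood at 10.8, 2.29, 3.15 and 1.54 CPM. Tbx5 was thus highest in the neonate control library, with log2 ratios of 1.77 (interval 1.51 to 2.04) over the adult control and, for the injured neonate over this library, of -2.23 (-2.52 to -1.96). Isl1, a hindlimb field factor, ran the other way, at 3.29, 19.1, 32.7 and 20.4 CPM. In endothelial and immune cells none of Pitx1, Tbx4 and Tbx5 passed 1.38 CPM.

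In the neonate control library, 550 of 5451 stromal cells had a Tbx5 UMI. These cells held Pitx1 at 17.2 CPM against 39.0 CPM in the other 4901, Hoxc10 at 13 against 21.6 CPM and Hoxc11 at 1.81 against 8.49 CPM. Hoxb2 was higher in them, at 10.6 against 3.65 CPM, and Hoxa10 was near the rest, at 31.0 against 32.7 CPM (log2 ratio -0.07, interval -0.28 to 0.12). After thinning each cell to 3000 UMIs, 3.87% of cells with Tbx5 and 10% of cells without it had a Pitx1 UMI, and 1.29% and 5.9% had a Hoxc10 UMI. The 107 cells with Tbx5 in the neonate injury library differed: Pitx1 was higher in them, at 64.4 against 42.5 CPM, as was Hoxc10, at 41.0 against 32.8 CPM, although the interval of the Hoxc10 log2 ratio (0.34, -0.20 to 0.80) spans 0. What these cells contribute is given beside each stromal comparison below. A Tbx5 UMI is missed in most cells that hold the transcript at such levels, so removing cells with one removes only some of them.

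Most members were lower in neonate than in adult control stroma: 11 of the 25 members with at least 50 UMIs were at least 2-fold lower in the neonate and 4 were at least 2-fold higher. Over all 16240 genes so measured, 12.0% were at least 2-fold lower and 18.1% at least 2-fold higher, so the share of members that were higher lay below that of all genes. The median log2 ratio, neonate control over adult control, was -0.80 for the members and 0.13 for all genes. The lower members were Hoxa10, Hoxa11 and Hoxa13 of the distal HoxA end, Hoxc4, Hoxc6, Hoxc9 and Hoxc13, and Hoxd4, Hoxd8, Hoxd9 and Hoxd10. The higher members were Hoxb2, Hoxb3, Hoxb4 and Hoxd13.

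Hoxa10 (ENSMUSG00000000938), a gene of the upper limb segment, stood at 32.5, 67.0, 77.0 and 38.0 CPM. The uninjured adult and injured neonate libraries were high and the other pair low, and the counting intervals of these pairs did not overlap. A Hoxa10 UMI was seen in 9.72%, 17.5%, 18.7% and 9.93% of stromal cells thinned to 3000 UMIs (28.5%, 32.6%, 48.6% and 44.6% unthinned), against 0.544%, 0.664%, 0.373% and 0.227% of thinned immune cells, whose median depths before thinning were 9315, 4808.5, 9094 and 7003.5 UMIs. The age log2 ratio was -1.25 (-1.32 to -1.17), which is 2.37-fold. Hoxa11 (ENSMUSG00000038210) stood at 8.03, 14.9, 24.9 and 12.3 CPM, with an age log2 ratio of -1.63 (-1.79 to -1.48). It was lowest in the neonate control and highest in the adult control library. Hoxa9 stood at 20.6, 29.7, 25.8 and 18.3 CPM, Hoxa3 at 3.13, 2.11, 3.48 and 2.20 CPM and Hoxa5 at 2.10, 2.27, 1.31 and 2.13 CPM, all within 2-fold with age. Hoxa13, the digit and foot gene, was highest in the adult control library again, at 1.57, 1.11, 4.44 and 0.637 CPM.

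Of the HoxD members, Hoxd9 stood at 8.92, 11.9, 25.5 and 6.02 CPM and Hoxd10 at 3.30, 7.01, 10.7 and 3.65 CPM, both 2.86-fold or more lower in neonate than adult control stroma. Hoxd11 (ENSMUSG00000042499) stood at 14.5, 11.2, 16.7 and 5.49 CPM, and its age ratio was small (log2 -0.20, -0.34 to -0.06). The adult injury library was thus the low one for Hoxd11, while the controls were close. Hoxd8 stood at 10.1, 19.5, 23.8 and 19.8 CPM, with the neonate control library alone at the low end. Hoxd4 stood at 0.71, 2.34, 3.04 and 1.67 CPM and Hoxd3 at 1.11, 2.25, 1.93 and 1.85 CPM.

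HoxC members were low in the neonate control library. Hoxc10 stood at 20.6, 32.9, 35.9 and 32.8 CPM, and its age log2 ratio was -0.80 (-0.91 to -0.70). Hoxc9 stood at 6.87, 9.21, 17.7 and 13.7 CPM, Hoxc11 at 7.69, 16.4, 13 and 16.3 CPM, and Hoxc4 at 3.74, 7.90, 9.67 and 8.90 CPM. Hoxc6 and Hoxc8, trunk paralogs, were instead highest in the adult injury library, at 3.94, 9.07, 8.30 and 16.0 CPM and at 5.14, 9.81, 8.69 and 15.7 CPM. Hoxc5 stood at 4.09, 5.98, 7.51 and 6.72 CPM. Hoxc13, known from nails and hair, stood at 0.139, 0.236, 2.23 and 1.19 CPM, with 9, 13, 102 and 54 UMIs, so its age log2 ratio of -3.94 (-5.18 to -3.03) rests on few molecules.

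The HoxB members measured in stroma went the other way. Hoxb2 (ENSMUSG00000075588) stood at 4.48, 0.927, 0.175 and 3.49 CPM, from 290, 51, 8 and 159 UMIs, and its age log2 ratio was 4.59 (3.68 to 5.90). The neonate control and adult injury libraries were high and the adult control library was near 0. Hoxb3 stood at 1.61, 1.02, 0.241 and 2.17 CPM, and Hoxb4 at 1.37, 0.363, 0.219 and 1.82 CPM. Hoxb5 to Hoxb9 stayed below 1 CPM in stroma of every library. Endothelial markers, whose cells hold HoxB, summed to 89.9, 115, 112 and 110 CPM in stromal cells against 9906, 10867, 10561 and 10078 CPM in endothelial cells. Their part in the Hoxb2 levels was not tested.

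**Figure D3:**
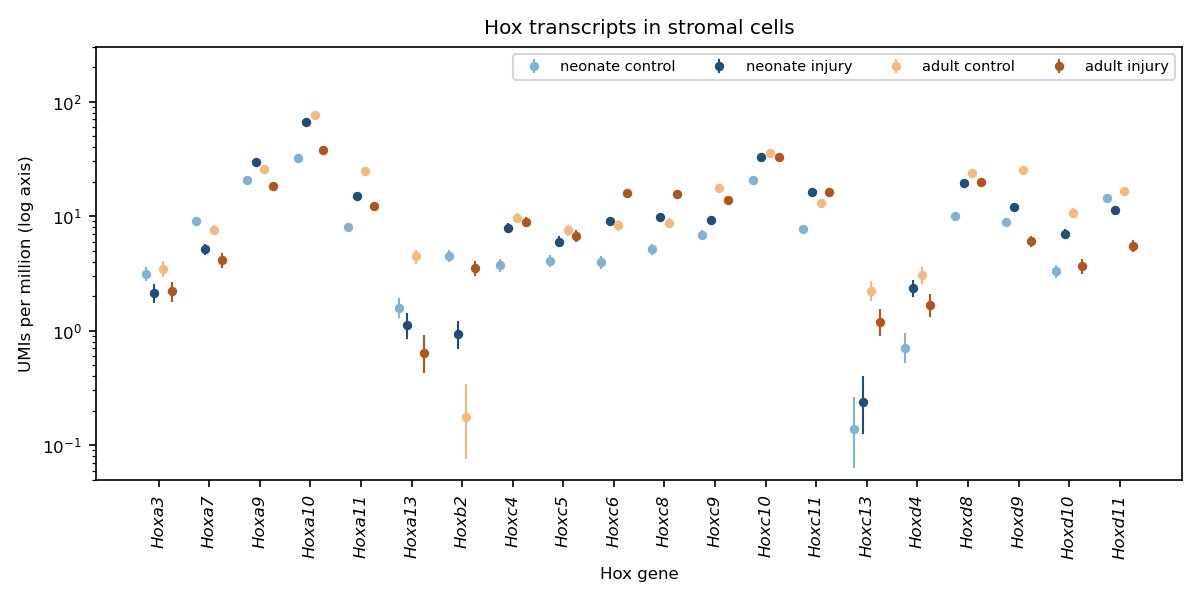
Points give the CPM of 20 members in stromal cells (y axis, log scale), with colours for the 4 libraries and bars for exact 95% Poisson intervals. Neonate control (light blue) sits low for Hoxa10, Hoxa11 and Hoxc4 to Hoxc11, while Hoxb2 is lowest in adult control (light orange) at 0.175 CPM.

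Without the cells that had a Tbx5 UMI, the age log2 ratio was -1.27 for Hoxa10, -1.55 for Hoxd9 and 4.86 for Hoxb2. In cells with a Pitx1 or Tbx4 UMI and no Tbx5 UMI, 5 members were at least 2-fold lower and none higher; Hoxa10 had -0.98 and Hoxd9 -1.70 there, and Hoxb2 did not reach 50 UMIs. In tenocyte-marker cells alone, Hoxa10 had -1.68 and Hoxd9 -1.59, and no member was 2-fold higher. Over the 15 alternative settings run, Hoxa10 ran from -1.68 to -0.55 and Hoxd9 from -1.70 to -0.55, past 2-fold in 11 and 13 of them. Tenocyte markers were carried by 1275 of 5451 stromal cells in the neonate control and 2148 of 3651 in the adult control library. Markers of activated fibroblasts were carried by 1414 and 8 of these cells. A stricter gate on class markers left Hoxb2, Hoxb3 and Hoxb4 under 50 UMIs and no member 2-fold higher. Myofibre markers, a sign of muscle debris, summed to 397, 40.1, 9.63 and 11.2 CPM in stromal cells, and their part in these ratios was not tested. Hoxd10 had 0.30 and Hoxd11 2.18 in universal-fibroblast-marker cells alone, against -1.70 and -0.20 in the whole stroma, and Hoxc11 had 0.07 in cells with Pitx1 or Tbx4 and no Tbx5. Whether the neonate control library holds tissue of the forelimb was not tested, and this comparison and that of neonatal injury both rest on it. Age, library and limb markers cannot be told apart with 1 library per group.

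Injured neonate stroma held more of most members than the neonate control: 7 of 25 were at least 2-fold higher (Hoxa10, Hoxc4, Hoxc6, Hoxc11, Hoxd3, Hoxd4 and Hoxd10) and 3 at least 2-fold lower (Hoxb2, Hoxb4 and Hoxd13). Of all 16602 genes, 8.90% were at least 2-fold higher and 11.9% at least 2-fold lower, which is close to the share of members that were lower. The median log2 ratio, injury over control, was 0.53 for the members and -0.06 for all genes. This comparison shares the neonate control library with the age comparison, so a low or high value in that library enters both, and the values above give each library's level.

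Hoxa10 had an injury log2 ratio of 1.04 (0.97 to 1.12), Hoxc6 of 1.20 (0.98 to 1.43) and Hoxd4, from fewer UMIs, of 1.71 (1.23 to 2.24). Hoxa11 and Hoxd8 were higher by less than 2-fold, with 0.89 (0.73 to 1.05) and 0.95 (0.81 to 1.09). Hoxd10 had 1.08 in the whole stroma but -1.01 in universal-fibroblast-marker cells. Hoxd11 was slightly lower after injury, at -0.38 (-0.53 to -0.23), and so was Hoxa7, a trunk paralog at 9.04, 5.12, 7.55 and 4.11 CPM, at -0.82 (-1.03 to -0.61). Hoxb2 was 4.79-fold lower, with a log2 ratio of -2.26 (-2.73 to -1.84). Hoxd13 went from 1.11 to 0.0727 CPM, on 72 and 4 UMIs. Without cells that had a Tbx5 UMI, Hoxa10 had 1.04 and Hoxb2 -2.12; in cells with Pitx1 or Tbx4 and no Tbx5, Hoxa10 had 0.77 and Hoxc10 -0.08 (0.68 in the whole stroma), 3 members were at least 2-fold higher and 1 lower. Stricter gating, tenocyte-marker cells alone, and injured cells with Y-linked and no Xist UMIs each also left 1 member at least 2-fold lower.

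In injured adult stroma, 3 of 24 members were at least 2-fold higher than in its control (Hoxb2, Hoxb3 and Hoxb4) and 6 at least 2-fold lower (Hoxa10, Hoxa11, Hoxa13, Hoxd9, Hoxd10 and Hoxd11). Of all 15524 genes, 17.2% were at least 2-fold higher and 15.1% at least 2-fold lower, so the share of members that were higher lay below that of all genes. Where the stricter gate or tenocyte-marker cells alone left these HoxB members under 50 UMIs, the 1 higher member was Hoxc6 (1.34) and Hoxd3 (1.45), respectively. The median log2 ratio was -0.32 for the members and 0.04 for all genes. Hoxa10 had -1.02 (-1.10 to -0.94), Hoxd9 -2.08 (-2.28 to -1.89) and Hoxd11 -1.60 (-1.82 to -1.40). Hoxb2 had 4.24 (3.30 to 5.55) and Hoxb4 3.00 (2.11 to 4.17). HoxC members stayed within 2-fold, from -0.91 for Hoxc13 to 0.95 (0.77 to 1.13) for Hoxc6. Without cells that had a Tbx5 UMI, Hoxa10 had -1.05, Hoxd9 -2.09 and Hoxb2 4.63, with 3 members higher and 6 lower. In cells with Pitx1 or Tbx4 and no Tbx5, 2 members were higher (Hoxb2, 4.05, and Hoxc6, 1.08) and 7 lower. The adult control library is also a term of the age comparison.

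The kinds of stromal cell differed between these 2 libraries. Of the stromal cells, 2148 of 3651 in the adult control and 212 of 2023 in the adult injury library carried tenocyte markers, while 1329 of the injured cells and 8 of the control cells carried markers of activated fibroblasts. In tenocyte-marker cells alone, the adult injury log2 ratio was -1.08 for Hoxa10 but -0.88 for Hoxd9, -0.75 for Hoxd11 and -0.10 for Hoxd10. In cells without tenocyte markers it was -0.42 for Hoxa10, -1.76 for Hoxd9, -0.56 for Hoxd11 and 3.33 for Hoxb2. It was -0.95 for Hoxd10 there. The Hoxd10 and Hoxd11 ratios were thus closer to 0 in cells with and in cells without tenocyte markers than in the whole stroma, although universal-fibroblast-marker cells, described below, held Hoxd11 at 3.15 and 0.728 CPM from 38 and 3 UMIs. Hoxb2 stayed over 2-fold higher in every setting that left enough UMIs, with 2.43 where classes came from joint clusters (2.75 for its age ratio).

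**Figure D4:**
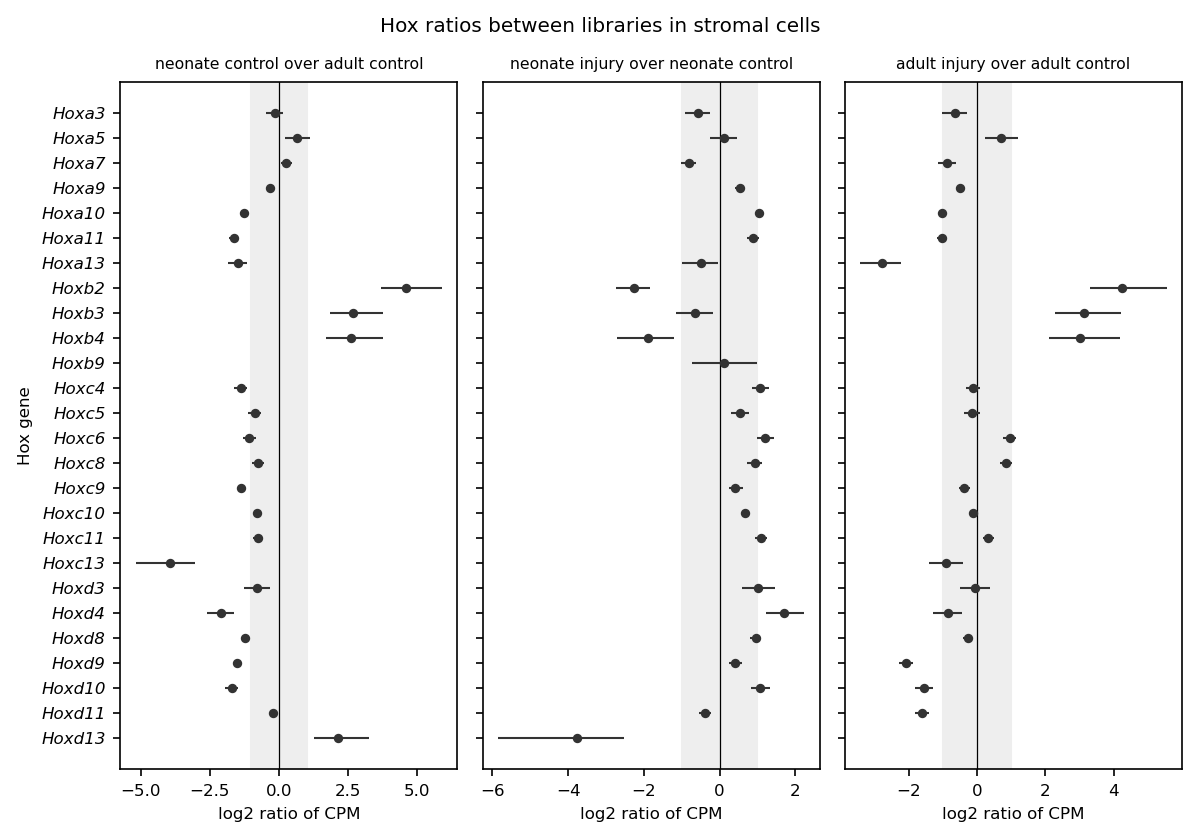
Points give the log2 ratio of CPM (x axis) of each member (y axis) with at least 50 UMIs in stromal cells for 3 comparisons, bars give exact 95% counting intervals, and the grey band marks less than 2-fold. Hoxb2 and Hoxb4 lie right of the band with age and adult injury and left of it with neonatal injury, where most other members lie right of 0.

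Levels of Hoxd9, Hoxd10 and Hoxd11 differed between stromal subsets as well as between libraries. Tenocyte-marker cells, which make tendon collagen, were set against cells with universal fibroblast markers, a connective tissue sheath type; the subsets held 1275, 2553, 2148 and 212 cells and 1360, 1308, 847 and 245 cells. Hoxd11 stood at 21.7, 18.0, 24.1 and 14.2 CPM in tenocyte-marker cells and at 14.5, 4.47, 3.15 and 0.728 CPM in universal-fibroblast-marker cells. It was higher in tenocyte-marker cells of each library, with log2 ratios of 0.58 (0.34 to 0.83), 2.00 (1.53 to 2.53), 2.92 (2.47 to 3.45) and 4.08 (2.67 to 6.61). Hoxd10 stood at 4.67, 11.2, 15.1 and 14.0 CPM against 3.08, 1.49, 2.49 and 0.97 CPM, and Hoxd9 at 10.8, 17.2, 32.4 and 17.5 CPM against 7.17, 6.07, 10.5 and 1.70 CPM. The gap between the subsets was under 2-fold in the neonate control library and over 2-fold in the other 3 for all of Hoxd9, Hoxd10 and Hoxd11.

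No member passed 2-fold between these subsets in all 4 libraries, of 14 with at least 50 UMIs in each; of all 10173 genes, 2.88% were at least 2-fold higher in tenocyte-marker cells in all 4 and 3.55% lower. Hoxa11, Hoxd9, Hoxd10 and Hoxd11 were on the higher side in all 4 libraries, and Hoxc4, Hoxc6 and Hoxc8 on the lower side. Hoxc6 stood at 2.41, 6.45, 6.82 and 13.3 CPM in tenocyte-marker cells and at 4.76, 9.62, 11.3 and 24.7 CPM in universal-fibroblast-marker cells. Hoxb2 stood at 3.54, 0.730, 0.0383 and 0.237 CPM against 7.29, 2.52, 0.497 and 7.28 CPM. In the injured adult, Hoxb2 thus lay outside tenocyte-marker cells, and activated fibroblast-marker cells held it at 2.94 CPM. Hoxc13 stood at 0.307 and 0.711 CPM in tenocyte-marker cells of the adult libraries and at 5.97 and 4.37 CPM in universal-fibroblast-marker cells.

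Synovial-lining-marker cells, of which there were 111, 62 and 324 in the first 3 libraries, held Hoxa10 at 54.9, 95.6 and 53.2 CPM and Hoxd9 at 19.7, 0 and 33.2 CPM. Perineural-marker cells, the sheath of nerves, held Hoxa10 at 34.6 and 39.5 CPM and Hoxd11 at 9.07 and 0 CPM in the neonate libraries, from 91 and 106 cells. Cartilage cells were numerous enough only in the neonate control library, where 711 cells held Hoxa10 at 32.1 CPM, Hoxa11 at 18.9 CPM, Hoxa13 at 6.53 CPM, Hoxc10 at 35.6 CPM and Hoxd11 at 4.83 CPM. Their Hoxa11 was above and their Hoxd11 below the 8.03 and 14.5 CPM of stromal cells of that library.

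**Figure D5:**
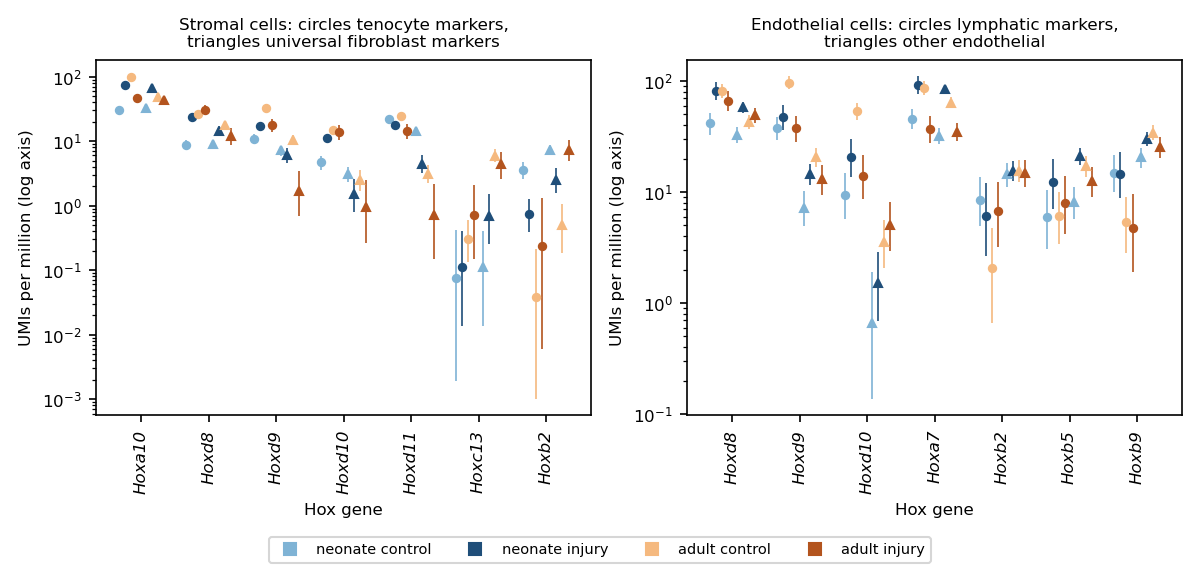
Points give CPM (y axis, log scale) of selected members in tenocyte-marker (circles) and universal-fibroblast-marker (triangles) stromal cells on the left, and in lymphatic-marker (circles) and other (triangles) endothelial cells on the right, with exact 95% Poisson bars and colours for the libraries. Circles lie above triangles of the same colour for Hoxd9, Hoxd10 and Hoxd11 on the left and for Hoxd9 and Hoxd10 on the right.

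Single stromal cells showed which members shared cells. Cells with a Hoxd11 UMI (717, 514, 468 and 158) held its neighbour Hoxd10 at 9.36, 28.6, 27.3 and 17.8 CPM, against 2.22, 5.15, 8.03 and 1.99 CPM in the cells without. The log2 ratios were 2.08 (1.67 to 2.48), 2.48 (2.16 to 2.79), 1.77 (1.49 to 2.04) and 3.16 (2.70 to 3.62). Hoxd9 followed with 1.06, 0.76, 0.58 and 1.38 and Hoxd8 with 0.87, 0.64, 0.82 and 0.78, so the ratio was largest for the adjacent gene in all 4 libraries. The other Hox11 gene, Hoxa11, was higher in Hoxd11 cells of the neonate control (0.57, 0.25 to 0.88), and its intervals spanned 0 in the other 3 libraries (0.12, -0.01 and 0.09). Reads of Hoxd10 and Hoxd11 can both fall on a readthrough model that overlaps their exons, and its part in these values was not tested.

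Stromal cells with a Hoxb2 UMI differed from the rest in other members. Whether they form a separate set of cells was not tested, nor was the part of endothelial markers in them. The 249, 45 and 97 cells with a Hoxb2 UMI in the neonate control, neonate injury and adult injury libraries held Hoxb3 at 6.96, 14.2 and 17.5 CPM against 1.29, 0.933 and 1.32 CPM in the rest. Hoxb4 was also higher in them, with log2 ratios of 2.75 (2.01 to 3.42), 4.96 (2.36 to 6.57) and 2.72 (1.92 to 3.42). Hoxa11 was lower, with -1.51 (-2.65 to -0.69) in the neonate control and -1.54 (-2.68 to -0.72) in the adult injury library. Limb markers differed between these libraries: Pitx1 was lower in Hoxb2 cells of the neonate control (-1.68, -2.17 to -1.25) but not of the injured adult (0.38, 0.03 to 0.70). Tbx5 was higher in Hoxb2 cells of all 3, at 23.4, 17 and 5.84 CPM against 10.0, 2.19 and 1.30 CPM. In the injured adult these cells also held more Hoxc8 (1.84, 1.53 to 2.12) and Hoxc6 (1.61, 1.29 to 1.90), and less Hoxd8 (-1.41, -2.21 to -0.78).

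Of the Hox13 and Hox11 pair in HoxA, 4 of 30 thinned neonate control cells with a Hoxa13 UMI had a Hoxa11 UMI (13.3%, against 2.61% of the rest). The pair shared 6 of 26 cells in the neonate injury library (23.1%, against 4.13%), 3 of 40 in the adult control library (7.5%, against 7.01%) and 1 of 5 in the adult injury library. Hoxd13 and Hoxd11 shared at most 1 cell per library. Hoxa10 and Hoxc10, both of the upper segment, were seen together little more or less often than apart: Hoxc10 was in 6.14%, 8.77%, 10.2% and 9.84% of thinned cells with Hoxa10 and in 5.73%, 9.51%, 8.99% and 10.5% of cells without.

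Endothelial cells carried a code of anterior and trunk paralogs. Against stromal cells of the same library, 13 of 27 members were at least 2-fold higher in all 4 libraries (Hoxa3, Hoxa5, Hoxa7, Hoxb2 to Hoxb9, Hoxd4 and Hoxd8) and 10 at least 2-fold lower (Hoxa10, Hoxa11, Hoxc4, Hoxc5, Hoxc6, Hoxc8, Hoxc9, Hoxc10, Hoxc11 and Hoxd11). Of all 13098 genes, 7.73% were at least 2-fold higher in all 4 libraries and 10.6% at least 2-fold lower. The minimum of 50 UMIs was taken over both classes together. Hoxb8 reached it mainly through endothelial cells, and the HoxC members, Hoxa11 and Hoxd11 mainly through stroma, the class where each was high. These counts were thus in part set by the UMI minimum. Hoxb8 stood at 15.7, 36.7, 16.1 and 26.5 CPM in endothelial and at 0.123, 0.182, 0.0657 and 0.308 CPM in stromal cells. Hoxb7, known from vascular growth, stood at 28.8, 30.3, 35.4 and 24.1 CPM and Hoxb9 at 18.9, 27.4, 24.5 and 19.1 CPM. Hoxb4, known from blood stem cells, stood at 27.0, 24.3, 32.6 and 28.0 CPM, with all 4 libraries close together. Hoxc10, in contrast, stood at 2.89, 2.21, 1.38 and 1.44 CPM, and Hoxa11 stayed at or below 0.552 CPM.

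Hoxd8 and Hoxd9 were held by both classes. Endothelial Hoxd8, known from lymphatic vessels, stood at 35.3, 62.3, 56.1 and 54.3 CPM, with log2 ratios over stroma of 1.81, 1.68, 1.24 and 1.46. Endothelial Hoxd9 stood at 16.4, 20.5, 46.4 and 20.6 CPM, with 0.89, 0.79, 0.86 and 1.78. Hoxa9 stood at 9.29, 20, 11.4 and 8.64 CPM, and Hoxa10 at 6.24, 9.10, 4.96 and 3.5 CPM. Stromal markers summed to 1435, 1848, 1250 and 2100 CPM in endothelial cells, against 47752 to 91377 CPM in stromal cells.

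Neonatal endothelial cells held more Hox transcript after injury: 8 of 19 members were at least 2-fold higher (Hoxa7, Hoxa9, Hoxb3, Hoxb5, Hoxb6, Hoxb8, Hoxd3 and Hoxd4) and none lower, against 7.93% and 3.81% of all 11285 genes. The median log2 ratio was 0.82 for the members and 0.12 for all genes. Hoxa7 (ENSMUSG00000038236) stood at 36.4, 85.8, 71.6 and 35.6 CPM, with 1.23 (1.02 to 1.46). A Hoxa7 UMI was seen in 10.6%, 23.3%, 19.8% and 7.79% of thinned endothelial cells (36.8%, 39.5%, 33.8% and 26.2% unthinned) and in 0.363%, 0.332%, 0.373% and 0.379% of thinned immune cells. Hoxb8 had 1.22 (0.89 to 1.57) and Hoxb5, at 7.46, 19.4, 13.5 and 11.1 CPM, had 1.37 (0.90 to 1.88). Hoxd3 stood at 1.83, 14.3, 12.4 and 15 CPM and Hoxd4 at 3.35, 13.4, 14.0 and 16.0 CPM, so the neonate control library was low and the other 3 close together. Hoxb4 (-0.15, -0.46 to 0.16) and Hoxb7 (0.08, -0.21 to 0.36) had intervals that span 0.

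Between the controls, 1 of 19 endothelial members was at least 2-fold higher in the neonate (Hoxa2, at 5.33 against 2.07 CPM) and 5 at least 2-fold lower (Hoxb6, Hoxd3, Hoxd4, Hoxd9 and Hoxd10), against 9.53% and 16.7% of all 11381 genes. Hoxb6 stood at 10.5, 22.6, 32.4 and 37.0 CPM, with an age log2 ratio of -1.62 (-2.03 to -1.23). After adult injury no member of 18 was at least 2-fold higher and 3 were at least 2-fold lower (Hoxa7, Hoxd9 and Hoxd10), against 8.90% and 8.05% of all 11250 genes. Hoxa7 had -1.01 (-1.27 to -0.76) and Hoxd10, at 3.35, 4.96, 20.2 and 7.82 CPM, had -1.36 (-1.93 to -0.85). Hoxa3, Hoxa5, Hoxb2, Hoxb3 and Hoxb9 stayed within 2-fold in adult injury. Hoxa5 stood at 16.6, 32.5, 17.4 and 27.4 CPM, Hoxa3 at 19.6, 27.2, 22.7 and 18.5 CPM, Hoxb2 at 12.6, 13.9, 11.0 and 12.3 CPM and Hoxb3 at 14.2, 29.6, 24.8 and 23.3 CPM.

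Lymphatic-marker endothelial cells held more Hoxd9 and Hoxd10 than other endothelial cells, while Hoxd11 stayed at or below 1.23 CPM in them. There were 67, 135, 196 and 58 of them, with median depths of 25132, 7208, 7945 and 15329 UMIs against 9331, 4905, 5408 and 6501 UMIs in other endothelial cells. Hoxd9 stood at 37.5, 47.5, 97.1 and 37.6 CPM in them and at 7.23, 14.6, 20.7 and 13.1 CPM in the others. Its log2 ratios were 2.36 (1.77 to 3.01), 1.70 (1.21 to 2.19), 2.22 (1.88 to 2.58) and 1.52 (0.93 to 2.13). It was the 1 member of 12 that was at least 2-fold higher in all 4 libraries and none was lower, against 1.77% and 0.279% of all 8257 genes. Hoxd10 reached 50 UMIs over both sums in the adult control library alone, so it was not counted. It stood at 9.50, 20.7, 53.3 and 14.1 CPM against 0.657, 1.51, 3.53 and 5.04 CPM. These levels came from 19, 27, 130 and 21 UMIs against 3, 9, 17 and 17 UMIs. Hoxd8 and Hoxa7 were also higher in lymphatic-marker cells of all 4 libraries, though under 2-fold, and Hoxa3, Hoxa5, Hoxb2, Hoxb4, Hoxb7, Hoxb8 and Hoxb9 were lower. Hoxb9 stood at 15, 14.6, 5.33 and 4.70 CPM in lymphatic-marker cells and at 20.6, 30.3, 34.2 and 25.5 CPM in the others. Lymphatic-marker cells made up 196 of 923 endothelial cells in the adult control and 58 of 370 in the adult injury library, and what this share adds to the adult ratios of Hoxd9 and Hoxd10 was not tested.

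Mural cells, the pericytes and smooth muscle of vessel walls, had the HoxA and HoxC transcripts of stroma with less Hoxd9, Hoxd10 and Hoxd11. Against stroma in the 3 libraries with at least 100 mural cells, 3 of 19 members were at least 2-fold higher in all 3 (Hoxa3, Hoxa5 and Hoxc6) and 3 lower (Hoxd9, Hoxd10 and Hoxd11), against 5.75% and 8.25% of all 13156 genes. Hoxd10 and Hoxd11 had at most 3 UMIs in mural cells of any library. These 2 members thus reached 50 UMIs through stroma, where they are high, and their count as lower was in part set by the UMI minimum. Hoxa9 stood at 42.2, 48.1, 37.1 and 22.4 CPM and Hoxa10 at 42.2, 49.7, 63.8 and 17.2 CPM, and the adult injury library, with 95 cells, was the low one for both. Hoxc6 stood at 11.4, 32.1, 16.6 and 34.3 CPM and was thus high in both injured libraries. HoxB made up 18%, 3.78%, 2.34% and 4.36% of mural Hox UMIs. Stromal markers summed to 6056, 8936, 2324 and 14476 CPM in mural cells, against 47752 to 91377 CPM in stromal cells. Their part in the mural Hox levels was not tested.

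Hoxb2 in mural cells stood at 24.2, 4.58, 4.04 and 7.46 CPM, from 106, 6, 10 and 10 UMIs. As in stroma, the neonate control library was the high one. Between the controls, 1 of 14 mural members was at least 2-fold higher in the neonate (Hoxb2, 2.52, 1.65 to 3.69) and 2 lower (Hoxc4 and Hoxc11), against 13.2% and 10.1% of all 9900 genes. After neonatal injury, 5 of 12 were at least 2-fold higher (Hoxc4, Hoxc6, Hoxc9, Hoxc10 and Hoxd8) and 1 lower (Hoxb2, -2.29, -3.88 to -1.23), against 6.15% and 4.25% of all 9417 genes. Hoxc4 stood at 6.39, 31.3, 13.3 and 18.6 CPM, with 2.28 (1.56 to 3.04), and Hoxc10 at 17.4, 35.9, 33.5 and 36.5 CPM, with 1.05 (0.49 to 1.59).

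Glial cells, the Schwann cells of the nerves, held HoxB and Hoxd8 with little HoxA. In the neonate libraries, 5 of 24 members were at least 2-fold higher than in stroma in both (Hoxb2, Hoxb3, Hoxb7, Hoxb9 and Hoxd8) and 13 lower, against 11.7% and 15.1% of all 14390 genes. The lower members were Hoxa3, Hoxa7, Hoxa9, Hoxa10, Hoxa11, Hoxa13, Hoxc5, Hoxc8 to Hoxc11, Hoxd10 and Hoxd11. Glial cells held 608 and 504 Hox UMIs over all members, so these 13 reached 50 UMIs mainly through stroma, where they are high. Hoxb7 reached it mainly through glial cells. Both counts were thus in part set by the UMI minimum. Hoxd8 stood at 27.2 and 43.3 CPM, Hoxb7 at 14.6 and 8.50 CPM and Hoxb9 at 14.4 and 7.28 CPM, while Hoxa10 stood at 1.44 and 0.202 CPM. After neonatal injury none of 5 members was at least 2-fold higher and 1 was lower (Hoxb2, at 10.1 and 4.65 CPM), against 7.03% and 6.34% of all 10895 genes. Hoxb5, Hoxb6 and Hoxb8, which met the naming rule in endothelial cells, stayed below 10 CPM in glial cells.

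Muscle cells were gated on satellite cell and myoblast markers or on myofibre markers. In the neonate libraries, myofibre markers summed to 5072 and 11704 CPM in them, and satellite cell and myoblast markers to 3052 and 3769 CPM. Muscle cells had Hoxa7 at 33.8 and 19.6 CPM and Hoxc10 at 15.6 and 40.2 CPM in these libraries. Against stroma, 2 of 21 members were at least 2-fold higher in both (Hoxa5 and Hoxa7) and 3 lower (Hoxd9, Hoxd10 and Hoxd11), against 10.3% and 18.9% of all 14133 genes. Hoxd11 had 1.88 and 0 CPM there. Both shares of members lay below those of all genes, so these counts do not set the members apart from other genes. The 3 lower members were the same as in mural cells, and in muscle too they reached 50 UMIs mainly through stroma.

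Immune cells, which arise from blood rather than from limb mesenchyme, held little of any member. None of 18 members was at least 2-fold higher than in stroma in all 4 libraries and all 18 were lower, against 9.81% and 16.5% of all 13192 genes. Immune cells held 60, 113, 38 and 251 Hox UMIs over all members, so these 18 reached 50 UMIs mainly through stroma, where they are high. That all 18 were lower was thus largely fixed by the UMI minimum. Hoxb4, not among the 18, differed from the other members in immune cells. It stood at 0.338, 6.14, 2.76 and 6.81 CPM from 2, 48, 8 and 89 UMIs. This was above its stromal 0.363 and 1.82 CPM in the injured libraries. In macrophage-marker cells it stood at 0.269, 6.60, 2.60 and 7.38 CPM. Endothelial markers summed to 89.5, 85.3, 90.2 and 94.9 CPM in immune cells, and their part in the Hoxb4 levels was not tested.

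Partners and regulators of Hox proteins were read in stroma from lists, whose members' counts stand beside the shares of all genes. Of 19 limb identity factors, 18 had enough UMIs with age and after neonatal injury and 17 after adult injury; 3 were at least 2-fold higher and 1 lower in neonate than adult control stroma, 1 and 3 after neonatal injury, and 1 and 6 after adult injury. The shares of all genes, in the same order, were 18.1% and 12.0%, 8.90% and 11.9%, and 17.2% and 15.1%. The list lay above them only for members lower after either injury. En1, a dorsoventral limb factor, stood at 12.5, 12.8, 2.54 and 15.9 CPM, and Meox1 at 34.5, 14.8, 55.6 and 12.8 CPM. Hand2, a factor of the posterior limb margin, stood at 18.2, 16.3, 25.6 and 7.23 CPM, lowest in the adult injury library.

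Of 10 cofactors, which bind DNA with Hox proteins or hold them back, 4 were higher and none lower with age as above, none and 2 after neonatal injury, and 2 and 1 after adult injury. The shares of all genes were again 18.1% and 12.0%, 8.90% and 11.9%, and 17.2% and 15.1%. The cofactors were near the share of those higher after adult injury and below that of those lower. Meis2 stood at 57.4, 53.3, 21.8 and 64.3 CPM, and Pknox2 at 31.7, 26.9, 52.4 and 23.7 CPM, in opposite order between the adult libraries. Pbx3 stood at 102, 93.9, 56.5 and 113 CPM and Meis3 at 16.8, 20.7, 8.21 and 11.4 CPM. Gmnn, which binds Hox proteins and licenses replication in dividing cells, stood at 21.7, 4.54, 1.71 and 13.5 CPM. The levels of Gmnn and Hoxb2 were both high in the neonate control and adult injury libraries.

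Of 10 noncoding transcripts of the clusters, 6 had enough UMIs with age and after neonatal injury and 5 after adult injury; 2 were higher and 2 lower with age, 2 and 1 after neonatal injury, and 2 and 1 after adult injury. The shares of all genes were 18.1% and 12.0%, 8.90% and 11.9%, and 17.2% and 15.1%, but the transcripts counted were few. Hoxa11os, antisense to Hoxa11, stood at 14.0, 31.8, 24.6 and 13.9 CPM, and Hoxd3os1 at 6.24, 10.3, 17.3 and 5.95 CPM. Of 25 regulators, 22 had enough UMIs; 4 were higher and 4 lower with age, 3 and none after neonatal injury, and 3 and 3 after adult injury. Against the same shares of all genes, the regulators were near them for those higher with age and below them in both directions after adult injury. Cbx7, a Polycomb subunit, stood at 0.803, 1.94, 15.7 and 2.13 CPM, and the Polycomb methyltransferase genes Ezh1 and Ezh2 stood at 15.1, 14.5, 44.7 and 14.7 CPM and at 101, 53.4, 38.2 and 64.6 CPM. The adult control library was thus the high one for Cbx7 and Ezh1 and the low one for Ezh2. Rarb, a retinoic acid receptor, stood at 12.9, 19.7, 27.5 and 7.58 CPM, and Gdf11, which is known to switch on posterior Hox genes in the trunk, at 5.05, 9.32, 1.99 and 13.5 CPM.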

How the data were processed

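Cells of Achilles tendons of mice were measured in 4 libraries, grouped by the age and treatment in the labels. The matrices deposited by the authors hold counts of UMIs, with Cell Ranger 8.0.1 named in the file headers and GRCm39 named in the submitters' processing notes; the annotation release and the use of introns and strand are not given in the sources used here. Barcodes under 500 genes or 1000 UMIs, or over 15% mitochondrial UMIs, were left out. Scrublet (scanpy 1.11.5) scored doublets in each library. The top scores, 0.8% for every 1000 barcodes, were dropped (908, 1944, 321 and 185 barcodes), leaving 9521, 12941, 5792 and 4440 cells.

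A cell was assigned to a class with at least 3 of its markers and at least 0.4 of them detected, and a lead of 0.2 of the markers over the next class (0.1 over stroma for other classes); these thresholds were set after marker counts were seen. Subsets needed 2 markers. UMIs were summed per class and library. CPM has an exact Poisson interval, shares an exact binomial (Clopper-Pearson) interval, and log2 ratios, with 0.5 counts added, an exact binomial interval, all at 95% and for counting error only. A count of genes past 2-fold uses genes with at least 50 UMIs over the sums compared. The log2 ratio and the intervals were tested on simulated counts. The gate, the subsets, doublet removal and thinning were not tested in this way. Python 3.11.15, scipy 1.17.1, R 4.3.3 and edgeR 4.0.16 (TMM scaling alone) were used.

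The members, lists and comparisons were chosen with earlier results of these data known. Members were named when they reached 10 CPM and 20 UMIs in a class of at least 100 cells; list members needed 10 CPM in stroma, up to 5 per list by the largest absolute ratio, with Pitx1, Tbx4 and Tbx5 added. 1 member below the naming level is not reported here by name. Of 70 list genes, 6 were not found by symbol. Alternatives covered the gate, the cell filter, doublets, scaling, the added count, the UMI minimum and stromal subsets; those on Tbx5, Pitx1, Tbx4, universal fibroblast markers and a wider gate margin were added after the data were seen.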

Additional observations from a re-analysis of the deposited data

Results flagged for a closer look

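For 5 members the log2 ratio of injury over control passed 2-fold in opposite directions at the 2 ages. In stromal cells, Hoxa10 had 1.04 in neonates and -1.02 in adults, and Hoxd10 had 1.08 and -1.56, although Hoxd10 had -1.01 after neonatal injury in universal-fibroblast-marker cells alone. Hoxb2 had -2.26 and 4.24, and Hoxb4 had -1.89 and 3.00. In endothelial cells, Hoxa7 had 1.23 and -1.01. The difference between the ages was not tested, since each value compares 1 library with 1 library.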

How the results depend on the processing

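No paired analysis was possible because each group had 1 library. Of 1081 recomputed gene ratios, 867 stayed within the counting interval of the value given, 212 moved outside it, and 2 that had passed 2-fold changed sign: in universal-fibroblast-marker cells alone, Hoxd10 had 0.30 with age and -1.01 with neonatal injury. Another 34 values, of ratios that were under 2-fold, also changed sign, among them Hoxd11 with age (-0.20, and 2.18 in universal-fibroblast-marker cells) and Hoxd3 with adult injury (-0.06, and 1.45 in tenocyte-marker cells). The 3 medians kept their sign in every setting run. Members at least 2-fold higher with age (4) numbered 0 under the stricter gate, in tenocyte-marker cells and in cells with Pitx1 or Tbx4 and without Tbx5, and 7 and 11 with minimums of 20 and 1 UMIs; those lower (11) numbered 5 in the cells with Pitx1 or Tbx4. After neonatal injury the higher members (7) numbered 3 in these cells, and the lower members (3) numbered 1 there, under the stricter gate, in tenocyte-marker cells and in Y-linked-positive, Xist-negative injured cells. After adult injury the higher members (3) numbered 1 under the stricter gate and in tenocyte-marker cells (Hoxc6 and Hoxd3, not HoxB members), 5 with classes from clusters and with the mean of single cells, and 7 and 12 with minimums of 20 and 1 UMIs. The lower members (6) numbered 3 under the stricter gate and without tenocyte-marker cells and 2 in universal-fibroblast-marker cells. Fewer members were counted in the smaller subsets, and the cause was otherwise not tested. The counts of endothelial against stromal cells stayed at 13 and 10 in the settings run; the stricter gate left too few endothelial cells. TMM factors were 1.07, 0.987, 0.956 and 0.993. Depth limits members of few UMIs, such as Hoxc13 and Hoxd13, and thinned shares fell below unthinned ones.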
